A study of Mus musculus with 4 samples.

Results

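The 48 genes examined here code for the synaptic vesicle release machinery, and they are 48 of the 24532 genes listed for each library. They were listed by gene name and role, with no cutoff on a measured value. Earlier results of these data, that of Cplx2 among them, were already known. The roles are complexins, SNARE proteins and their regulators, synaptotagmins, active zone proteins, Rab3 proteins, synapsins, vesicle membrane proteins and vesicular glutamate transporters. Bulk RNA of the granule-cell-enriched (GCE) part of the cerebellar vermis was sequenced in 2 WT and 2 Kdm3b+/- mice, each mouse giving 1 library, to ask which genes differ in expression between the genotypes. The mice were adult males and littermates. The Kdm3b+/- mice carried 1 allele interrupted by a gene-trap vector, pGT0lxf, in every cell of the body, and came from a single targeted ES cell line. They were backcrossed to C57Bl/6N, and then bred to C57Bl/6J for a few generations. The WT mice carried no vector, and the labels name no treatment for either group. KDM3B removes methyl groups from lysine 9 of histone H3. The GCE part was dissected manually out of slices, so it holds other cells besides granule cells. The labels themselves name the tissue only as cerebellum.

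The libraries held between 4.92 and 6.69 gigabases of aligned sequence, with 17572 to 17991 genes above 0 TPM. TPM is a transcript level scaled to gene length and to a fixed total per library, so levels can be compared between genes. Kdm3b itself, as a check of the labels, had 9.10 and 11 TPM in the WT mice and 8.30 and 7.90 TPM in the Kdm3b+/- mice, where the standard error (SE) of its log2 fold change of −0.27 was 0.17 (adjusted p = 0.424 from limma). The reads of a gene-trap allele upstream of the vector count toward the gene as well.

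At a synapse, neurotransmitter is stored in vesicles that dock at the active zone of the presynaptic membrane. Vesicle fusion is driven by the SNARE complex, in which VAMP on the vesicle zips together with syntaxin and SNAP-25 on the membrane. UNC13 and RIM proteins prime the vesicle, complexins clamp and assist the assembled SNARE complex, synaptotagmins sense calcium, and NSF with its SNAP adaptors takes the spent complexes apart. In the cerebellum, granule cells use this machinery in the parallel fibers, their axons, which excite Purkinje cells.

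The machinery was abundant in GCE tissue, and no member differed between the genotypes at the threshold for DEX (differentially expressed) genes. Mean levels ran from 0.133 TPM for Rimbp2 to 9031 TPM for Snap25, and 17 of the 48 members were above 100 TPM. A gene was tested when its mean TPM was at least 1, which 45 members passed, while Doc2b, Rimbp2 and Sv2c did not. DEX genes needed both an adjusted p below 0.05 and a change of more than 1.2-fold, in limma on log2(TPM + 1). None of the 45 members met this, against 0.461% of the 13652 genes tested. The adjusted p of the members ranged from 0.112 to 0.995. With each library left out in turn there were 0 DEX members as well, except without Kdm3b+/- mouse 2, where Rims3 and Slc17a7 (2 members) were DEX, with 1.38% of all genes tested DEX in that fit. At an unadjusted p under 0.05 there were 11 members, or 24.4%, against 17.0% of all genes tested. Of these, Cplx2, Syt5 and Rab3c were higher in Kdm3b+/- mice (5.47% of all genes tested), and Synpr, Rab3d, Napb, Rims3, Sv2b, Syt2, Nsf and Rab3b were lower (11.5% of all).

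**Figure D1:**
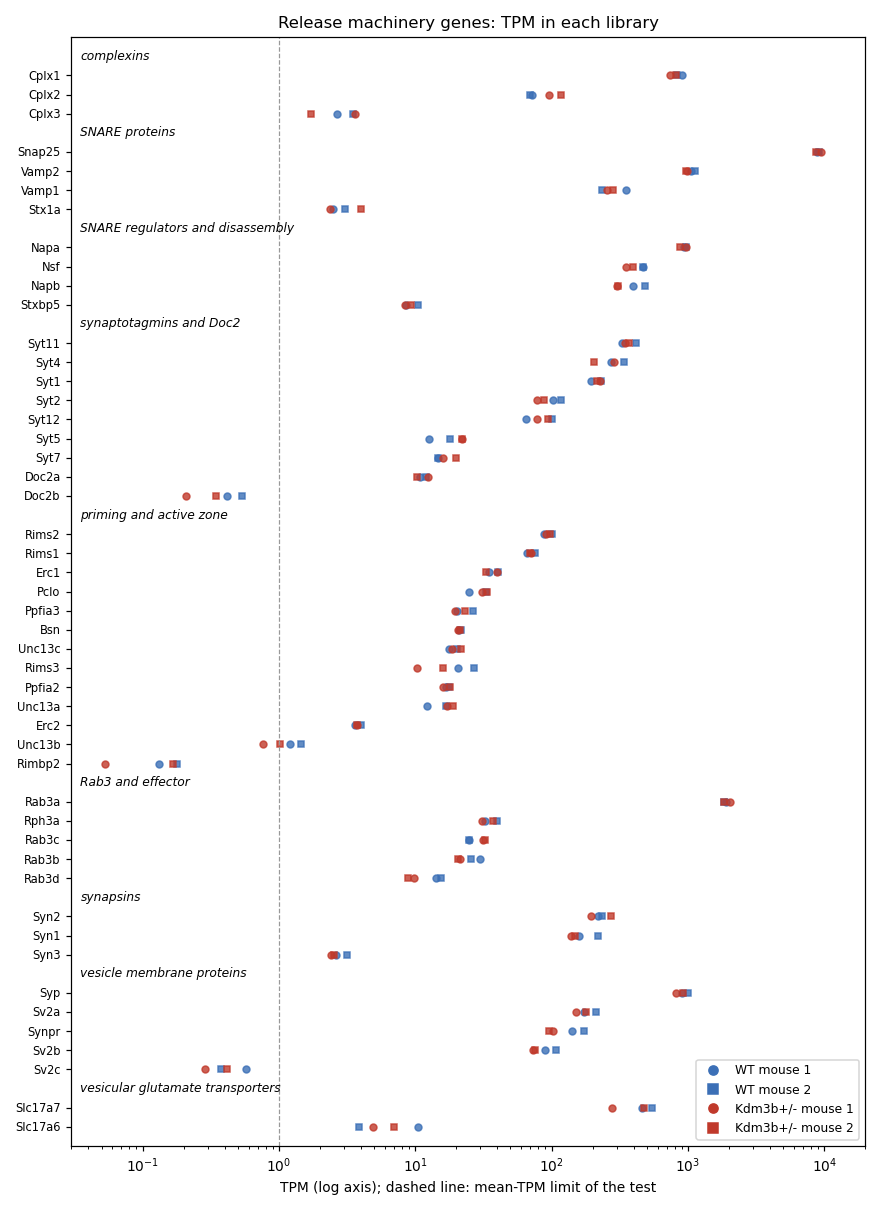
TPM (log axis) of the 48 release machinery genes in each of the 4 libraries, grouped by role, with WT mice in blue and Kdm3b+/- mice in red (circles mouse 1, squares mouse 2). Levels span 0.133 to 9031 TPM on average, and the points of most genes lie close together; the dashed line marks the mean of 1 TPM needed for a test.

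Both Kdm3b+/- libraries lay outside the range of the WT libraries for 18 members, or 40%, against 51.3% of all genes tested. They lay above it for Cplx2, Syt5, Syt7, Unc13a and Rab3c, where 19.2% of all genes did so, and below it for 13 members, where 32.0% of all genes did so. The median log2 fold change was −0.08 over the members and −0.07 over all genes tested. The fold change was positive for 13 members and negative for 32, where it was positive for 5402 and negative for 8250 of all genes tested. The split of the members turned on the scaling, since median-ratio scaling of the libraries gave 22 and 23. With that scaling, 4 higher and 6 lower members had an unadjusted p under 0.05. For the 34 members with an unadjusted p of 0.05 or more, the 95% intervals of the log2 fold change reached no further than −0.96 and 0.72 on the log2(TPM + 1) scale, which understates the change of members with a low TPM.

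Of the complexins, small proteins that bind the assembled SNARE complex, Cplx1 was the main form and Cplx2 the minor one in all 4 libraries. Their coding sequences are shown because the 2 paralogs pointed in opposite directions and because reads from stretches they share could be assigned to either. Both coding sequences, from GENCODE transcripts of GRCm38, have 405 bases, of which 323 (79.8%) are identical. The first 300 bases are printed, and capitals mark those that differ, 66 of the 82 differences.
Cplx1: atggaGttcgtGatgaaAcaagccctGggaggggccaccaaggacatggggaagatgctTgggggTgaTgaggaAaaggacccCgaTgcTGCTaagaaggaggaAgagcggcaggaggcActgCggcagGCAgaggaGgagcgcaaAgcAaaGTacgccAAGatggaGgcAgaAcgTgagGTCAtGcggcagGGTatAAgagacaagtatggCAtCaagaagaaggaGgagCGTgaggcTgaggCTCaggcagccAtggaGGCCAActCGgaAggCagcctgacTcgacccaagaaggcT
Cplx2: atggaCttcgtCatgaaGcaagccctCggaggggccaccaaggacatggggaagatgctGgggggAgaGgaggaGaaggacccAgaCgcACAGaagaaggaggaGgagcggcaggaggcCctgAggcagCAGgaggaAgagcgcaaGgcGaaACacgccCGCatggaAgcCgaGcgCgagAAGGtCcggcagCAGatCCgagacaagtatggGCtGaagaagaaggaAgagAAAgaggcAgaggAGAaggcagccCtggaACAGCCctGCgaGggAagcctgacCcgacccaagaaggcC
The longest stretch without a difference is 32 bases. In the authors' gene models Cplx1 lies on the reverse strand of chr5:108518554-108550027, Cplx2 on the forward strand of chr13:54371349-54383917, and Cplx3 on the reverse strand of chr9:57599992-57606281. The Cplx2 model starts 69385 bases downstream of the RefSeq start of the gene, so upstream first exons are not part of it.

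Cplx2 had 72.4 and 69.9 TPM in the WT mice and 96.3 and 118 TPM in the Kdm3b+/- mice (71.2 ± 1.80 and 107 ± 15.3, mean ± SD, n = 2). Both Kdm3b+/- libraries were higher than both WT libraries, and the WT libraries were close to each other. The log2 fold change was 0.58 (SE 0.15, 95% interval 0.24 to 0.91, adjusted p = 0.143 from limma), or 1.49-fold, and it did not pass the threshold. With each library left out in turn it lay between 0.43 and 0.72, the lowest value without Kdm3b+/- mouse 2. The study had already called Cplx2 DEX and higher in Kdm3b+/- mice on these same libraries, with a count test. Its direction here is thus not independent evidence. The study also reported a significant increase of Cplx2 mRNA by quantitative PCR in GCE tissue of other mice, which is not part of these data.

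Cplx1 had 908 and 836 TPM in the WT mice and 739 and 822 TPM in the Kdm3b+/- mice. The groups did not overlap, by a margin that was small beside the spread within each group (log2 fold change −0.16, SE 0.12, adjusted p = 0.511 from limma). Cplx3, a form known best from retinal ribbon synapses, was low, with 2.67 and 3.49 TPM in the WT mice and 3.61 and 1.71 TPM in the Kdm3b+/- mice. The Kdm3b+/- libraries stood on both sides of the WT libraries (log2 fold change −0.20, adjusted p = 0.724 from limma), and the sign turned to 0.18 without Kdm3b+/- mouse 2.

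Set against its paralogs, Cplx2 made up 7.37% and 7.69% of the summed complexin TPM in WT mice, against 11.5% and 12.5% in Kdm3b+/- mice. The difference was 4.47 percentage points (7.53 ± 0.228 against 12 ± 0.740, mean ± SD, n = 2; two-sided exact permutation p = 0.333, the smallest p that 2 mice against 2 can give). Cplx1 thus stood at 12.5 and 11.96 TPM per TPM of Cplx2 in the WT mice and at 7.68 and 6.97 in the Kdm3b+/- mice. Against its SNARE partners, Cplx2 had 7.34 and 6.76 TPM per 1000 TPM of Stx1a, Snap25 and Vamp2 in the WT mice. In the Kdm3b+/- mice this ratio was 9.22 and 12.2, a difference of 3.67 (two-sided exact permutation p = 0.333). The groups did not overlap in any of these 3 ratios. Shares without overlap were common in the other families of the list as well. Larger shifts than that of Cplx2 were seen for Napb (−6.70 percentage points), Syn1 (−6.38) and Rims3 (−5.19). The shares of the Vamp genes and of the vesicular glutamate transporters overlapped. Leaving out Kdm3b+/- mouse 2 lowered the difference in the SNARE ratio to 2.17, and leaving out Kdm3b+/- mouse 1 raised it to 5.17.

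**Figure D2:**
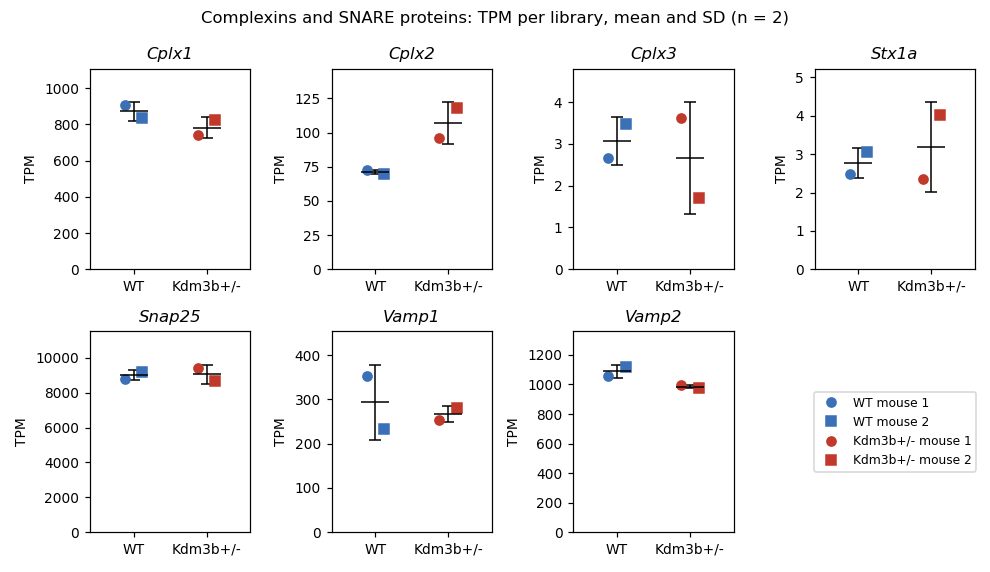
TPM (linear axes from 0) of the 3 complexins and 4 SNARE proteins in each library, with WT mice in blue, Kdm3b+/- mice in red, horizontal lines for the mean and bars for the SD (n = 2). Cplx2 is the only one of these 7 genes in which both Kdm3b+/- libraries lie above both WT libraries, while Cplx1 and Vamp2 lie below.

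Of the SNARE proteins, Snap25 had the highest level of the list, Vamp2 followed after Rab3a, and Stx1a was among the lowest. Snap25, the t-SNARE anchored to the presynaptic membrane, had 8804 and 9213 TPM in the WT mice and 9440 and 8665 TPM in the Kdm3b+/- mice. The groups overlapped fully and the fold change was close to 0 (log2 fold change 0.01, SE 0.10, 95% interval −0.22 to 0.23, adjusted p = 0.982 from limma). Vamp2, the main vesicle SNARE of the brain, had 1059 and 1120.0 TPM in the WT mice and 993 and 978 TPM in the Kdm3b+/- mice (log2 fold change −0.14, adjusted p = 0.521 from limma). Its groups did not overlap, but the step between them was about as wide as the step between the WT mice.

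Vamp1, the vesicle SNARE found more in the hindbrain and spinal cord, had 353 and 233 TPM in the WT mice and 254 and 281 TPM in the Kdm3b+/- mice. WT mouse 1 was high and the other 3 libraries lay together, so the log2 fold change of −0.10 (adjusted p = 0.800 from limma) turned to 0.19 without WT mouse 1. Stx1a, a plasma membrane syntaxin, had only 2.49 and 3.06 TPM in the WT mice and 2.36 and 4.02 TPM in the Kdm3b+/- mice (log2 fold change 0.13, adjusted p = 0.806 from limma). Its direction turned to −0.16 without Kdm3b+/- mouse 2.

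Among the proteins that regulate SNARE complexes or take them apart, both NSF and one of its adaptors were lower in Kdm3b+/- mice at an unadjusted p under 0.05. Nsf, the ATPase of this step, had 468 TPM in each WT mouse and 354 and 397 TPM in the Kdm3b+/- mice. On the log2 scale its fold change was −0.32 (SE 0.12, adjusted p = 0.246 from limma). Napb, which codes for beta-SNAP, the adaptor of brain, had 393 and 489 TPM in the WT mice and 301 and 307 TPM in the Kdm3b+/- mice. Both Kdm3b+/- libraries were below both WT libraries (log2 fold change −0.53, SE 0.14, adjusted p = 0.152 from limma).

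Napa, which codes for the widely expressed alpha-SNAP, had 935 and 977 TPM in the WT mice and 971 and 878 TPM in the Kdm3b+/- mice. These groups overlapped, and the log2 fold change of −0.05 (adjusted p = 0.854 from limma) turned positive under median-ratio scaling. Napb accordingly held 29.6% and 33.4% of the summed TPM of both adaptors in WT mice, against 23.7% and 25.9% in Kdm3b+/- mice, without overlap. Stxbp5, or tomosyn, which competes with VAMP for syntaxin, ranged from 8.36 to 10.51 TPM over the 4 libraries and overlapped between groups.

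The synaptotagmins are vesicle proteins, several of which sense calcium. Syt11, a member that does not bind calcium, had the highest level of this group, with 329 and 418 TPM in the WT mice and 348 and 367 TPM in the Kdm3b+/- mice. Its groups overlapped, and the log2 fold change of −0.05 (adjusted p = 0.879 from limma) turned positive under median-ratio scaling. Syt1, the fast calcium sensor of forebrain synapses, ranged from 196 to 229 TPM with overlapping groups. Syt2, the fast sensor of many hindbrain synapses, had 102 and 117 TPM in the WT mice and 78.4 and 88.1 TPM in the Kdm3b+/- mice. Both Kdm3b+/- libraries were below the WT libraries (log2 fold change −0.39, SE 0.14, adjusted p = 0.233 from limma).

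Syt5 went the other way, with 12.7 and 17.9 TPM in the WT mice and 22.0 and 22.1 TPM in the Kdm3b+/- mice. Its Kdm3b+/- libraries were nearly equal, and the WT libraries differed from each other by more than the higher one differed from them (log2 fold change 0.52, SE 0.18, adjusted p = 0.220 from limma). Syt7, a slow, high-affinity calcium sensor, had 14.7 and 14.6 TPM in the WT mice and 16.0 and 20.02 TPM in the Kdm3b+/- mice, without overlap but with an unadjusted p of 0.133 in limma. Syt4 ranged from 206 to 340 TPM, Syt12 from 64.5 to 102 TPM and Doc2a, a further calcium-binding protein of release, from 10.4 to 12.4 TPM. All 3 overlapped between groups. Doc2b, at 0.207 to 0.534 TPM, was too low to be tested.

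Of the 12 tested genes of priming and the active zone, 9 overlapped between the genotypes and 3 (25%) did not, where 51.3% of all genes tested did not. Rims2, which codes for a scaffold that ties Rab3 vesicles to calcium channels, had the highest level, with 87.6 and 101 TPM in the WT mice and 90.8 and 97.1 TPM in the Kdm3b+/- mice. The Kdm3b+/- libraries lay between the WT libraries, and the log2 fold change was −0.00 (SE 0.14, adjusted p = 0.995 from limma) with no stable sign under rescaling (0.07 under median-ratio scaling). Bsn and Pclo, the giant scaffolds bassoon and piccolo, ranged from 20.8 to 21.8 TPM and from 24.8 to 33.4 TPM. Unc13c, the UNC13 form of cerebellar granule cells, ranged from 17.8 to 21.8 TPM, and its level was above that of Unc13a (12.2 to 19.0 TPM) within each library. Unc13b stayed at 0.768 to 1.45 TPM. Rims1, Erc1, Erc2, Ppfia2 and Ppfia3, which code for further scaffolds of the active zone, overlapped between groups and had levels from 3.60 to 75.6 TPM. Rimbp2, at 0.0529 to 0.179 TPM, was not tested.

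Rims3, a short RIM form that lacks the Rab3-binding part, differed most in size of all members. It had 20.7 and 27.2 TPM in the WT mice and 10.4 and 16.0 TPM in the Kdm3b+/- mice. Both Kdm3b+/- libraries were below the WT libraries, and the spread within each group was wide. The log2 fold change was −0.83 (SE 0.22, 95% interval −1.32 to −0.33, adjusted p = 0.153 from limma). Rims3 passed the DEX threshold only without Kdm3b+/- mouse 2 among the fits that left out a library (log2 fold change −1.12, adjusted p = 0.0176 from limma). Its share of the summed Rims TPM was 11.8% and 13.4% in WT mice, against 6.05% and 8.75% in Kdm3b+/- mice. The authors' Rims3 model, chr4:120877869-120891560 on the forward strand, starts 23090 bases downstream of the RefSeq start, so its TPM covers part of the gene. The other 11 tested genes of the active zone had log2 fold changes from −0.30 to 0.31.

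Rab3 proteins are small GTPases of the vesicle surface, and the 4 forms differed in direction. Rab3a, the main form, had 1917 and 1835 TPM in the WT mice and 2028 and 1844 TPM in the Kdm3b+/- mice. The groups overlapped (log2 fold change 0.04, adjusted p = 0.865 from limma), and the value was −0.01 after correction for transcript length and GC content. Rab3d had 14.3 and 15.6 TPM in the WT mice and 9.74 and 8.90 TPM in the Kdm3b+/- mice, with little spread in either group. Its log2 fold change was −0.63 (SE 0.16, adjusted p = 0.142 from limma).

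Rab3b had 29.8 and 25.5 TPM in the WT mice and 21.3 and 20.6 TPM in the Kdm3b+/- mice, lower in both (log2 fold change −0.38, SE 0.15, adjusted p = 0.258 from limma). Rab3c had 24.9 TPM in each WT mouse and 31.6 and 32.4 TPM in the Kdm3b+/- mice, higher in both (log2 fold change 0.35, SE 0.14, adjusted p = 0.262 from limma). Because Rab3a held between 96.5% and 97.0% of the summed Rab3 TPM in every library, the minor forms hardly moved that sum. Rph3a, which codes for the Rab3 effector rabphilin, ranged from 30.9 to 39.8 TPM and overlapped between groups.

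The synapsins, which tether vesicles in the reserve pool, had no member at an unadjusted p under 0.05. Syn2 had 218 and 236 TPM in the WT mice and 195 and 271 TPM in the Kdm3b+/- mice, so the Kdm3b+/- libraries lay on both sides of the WT libraries (log2 fold change 0.02, adjusted p = 0.960 from limma). Without Kdm3b+/- mouse 2 the value was −0.21, and it was just below 0 under quantile normalization as well. Syn1 ranged from 140 to 150 TPM in the Kdm3b+/- mice and from 158 to 220 TPM in the WT mice, without overlap. Syn3 was low, at 2.41 to 3.14 TPM. Syn2 and Syn3 overlap Timp4 and Timp3 on the opposite strand (400.2 and 36.3 TPM on average). Whether reads were assigned by strand is not given in the sources used here, so reads in the overlaps cannot be told apart.

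Of the vesicle membrane proteins, Synpr had the smallest p of all 45 members tested. Synpr codes for synaptoporin, a relative of synaptophysin that is enriched in certain nerve terminals, mossy fibers of the hippocampus among them. It had 140 and 172 TPM in the WT mice and 103 and 95.2 TPM in the Kdm3b+/- mice. Both Kdm3b+/- libraries were well below the WT libraries, but the log2 fold change of −0.65 (SE 0.15, 95% interval −0.98 to −0.32, adjusted p = 0.112 from limma) did not pass the threshold. With each library left out in turn it lay between −0.80 and −0.50. The gene is on chr14:13284780-13615469, forward strand.

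Syp, the gene of synaptophysin and the usual marker of synaptic vesicles, had 910 and 1008 TPM in the WT mice and 813 and 915 TPM in the Kdm3b+/- mice. The groups overlapped (log2 fold change −0.15, adjusted p = 0.542 from limma), and the Synpr share of the summed Syp and Synpr TPM was 13.4% and 14.6% in WT mice, against 11.2% and 9.42% in Kdm3b+/- mice. Sv2b had 89.7 and 108 TPM in the WT mice and 73.1 and 75.1 TPM in the Kdm3b+/- mice (log2 fold change −0.41, SE 0.14, adjusted p = 0.226 from limma). Sv2a, the SV2 form found in nearly all terminals and the target of levetiracetam, ranged from 152 to 213 TPM with overlapping groups. Sv2c, at 0.287 to 0.577 TPM, was not tested.

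The vesicular glutamate transporters load vesicles with glutamate. Slc17a7, which codes for VGLUT1, the form of parallel fibers, had 465 and 548 TPM in the WT mice and 280 and 479 TPM in the Kdm3b+/- mice. Kdm3b+/- mouse 1 stood apart at the low end, while Kdm3b+/- mouse 2 lay between the WT mice. The log2 fold change was −0.46 (SE 0.22, adjusted p = 0.323 from limma). It was −0.08 without Kdm3b+/- mouse 1 and −0.85 without Kdm3b+/- mouse 2, where it passed the DEX threshold (adjusted p = 0.0104 from limma). Slc17a6, which codes for VGLUT2, was far lower, with 10.54 and 3.89 TPM in the WT mice and 4.86 and 6.95 TPM in the Kdm3b+/- mice, WT mouse 1 being the highest. VGLUT1 made up between 97.8% and 99.3% of the summed TPM of both transporters.

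**Figure D3:**
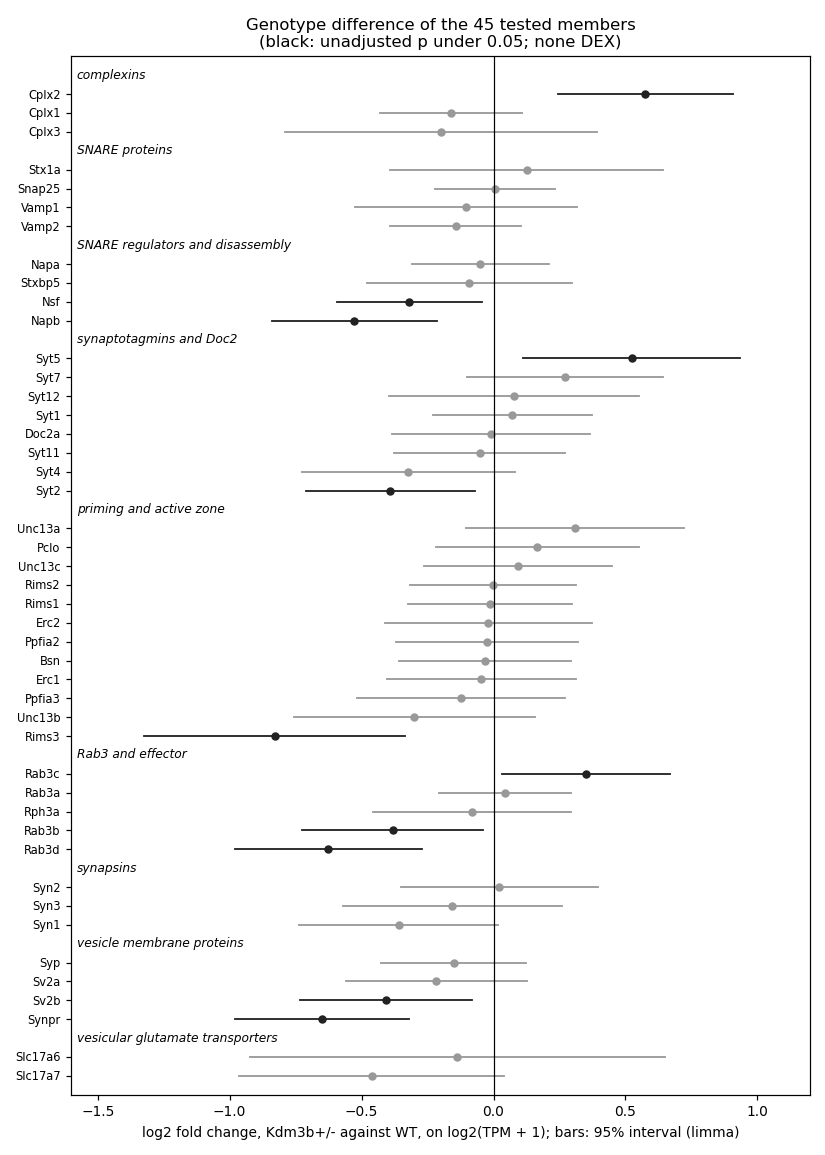
Log2 fold change of Kdm3b+/- against WT mice on the log2(TPM + 1) scale for the 45 tested members, by role, with 95% intervals from limma (2 mice per group). The 11 members with an unadjusted p under 0.05 are black; Cplx2, Syt5 and Rab3c lie right of 0, the other 8 lie left of it, and none was DEX.

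**Figure D4:**
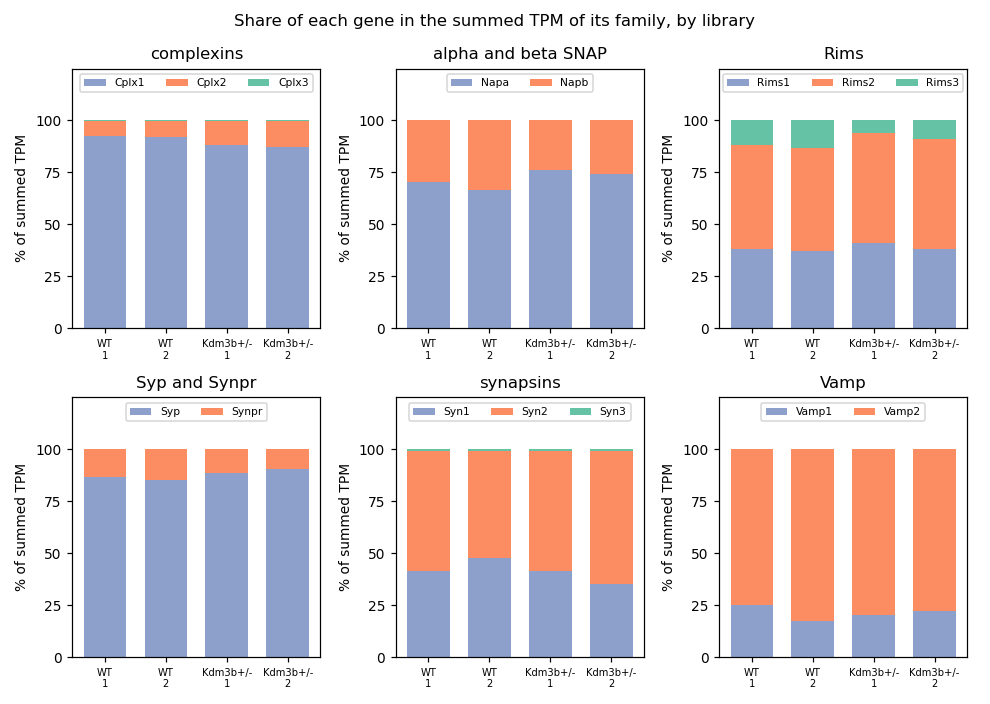
Share of each gene in the summed TPM of its family (percent, stacked bars) in each of the 4 libraries. The Cplx2 share is 7.37% and 7.69% in WT mice and 11.5% and 12.5% in Kdm3b+/- mice. The shares of Cplx1, Napb, Rims3, Synpr and Syn1 are smaller in both Kdm3b+/- mice than in both WT mice. Those of Napa, Rims1, Rims2, Syp and Syn2 are larger, and those of Cplx3, Syn3, Vamp1 and Vamp2 overlap.

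Beyond the 48 members, 70 further genes of the release pathway were listed, of which 69 were found and 62 were tested. Further synaptotagmins, synaptogyrins, synucleins and scaffold proteins are among them. Of these 62 genes, 1 was DEX (0.461% of all genes tested), and 13, or 20.97%, had an unadjusted p under 0.05 (17.0% of all). Of the 13, 2 were higher in Kdm3b+/- mice (5.47% of all) and 11 lower (11.5% of all), or 3 and 8 under median-ratio scaling. Their median log2 fold change was −0.11, against −0.07 over all genes tested. The DEX gene was Syt6, a synaptotagmin that is not among the 48, with 11 and 10.2 TPM in the WT mice and 3.84 and 4.12 TPM in the Kdm3b+/- mice. Its libraries were tight in both groups, and it fell by 1.22 on the log2 scale (SE 0.16, adjusted p = 0.0211 from limma). The call was lost without the filter on low TPM (adjusted p = 0.215 from limma) and without WT mouse 1 (0.0778) or WT mouse 2 (0.0809).

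Prrt2, which codes for a membrane protein that binds SNARE proteins and is mutated in paroxysmal dyskinesia, had 879 and 875 TPM in the WT mice and 567 and 635 TPM in the Kdm3b+/- mice (log2 fold change −0.55, SE 0.12, adjusted p = 0.105 from limma). Sncg, the gene of gamma-synuclein, had 13.9 and 10.9 TPM in the WT mice and 17.0 and 24.8 TPM in the Kdm3b+/- mice (log2 fold change 0.69, SE 0.21, adjusted p = 0.175 from limma).

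In bulk tissue, fewer cells of a type and less RNA per cell cannot be told apart, so marker genes of the cell types were summed beside the members. The 12 granule cell markers summed to 4919 and 5798 TPM in the WT mice and 5368 and 5694 TPM in the Kdm3b+/- mice, and none was at 0. None was DEX, but 4 (33.3%) had an unadjusted p under 0.05 in limma, against 17.0% of all genes tested. Cbln1, Zic1 and Tlcd3b were higher in Kdm3b+/- mice (log2 fold changes 0.41, 0.58 and 0.35), and Cbln3 was lower (−0.43). The 12 Purkinje cell markers were also present, and summed to 4865 and 3216 TPM in the WT mice and 3092 and 2606 TPM in the Kdm3b+/- mice. Aldoc alone made up most of this sum, with 3146 and 2468 TPM in the WT mice and 2134 and 1824 TPM in the Kdm3b+/- mice. All 12 Purkinje cell markers had a negative fold change (11 under median-ratio scaling), where 8250 of all genes tested were negative and 5402 positive. An unadjusted p under 0.05 was found for 4 of the 12 (17.0% of all genes tested), and the median log2 fold change of the 12 was −0.50. This rested on WT mouse 1, since without it 6 of the 12 were negative and the median was −0.047, a step chosen after seeing the data. Without WT mouse 2 the median was −0.87, and 11 of the 12 had an unadjusted p under 0.05. The 12 inhibitory interneuron markers, of which 9 were tested, summed to 621 and 373 TPM in the WT mice and 364 and 353 TPM in the Kdm3b+/- mice. Most of the step between the WT mice was Pvalb, with 290 TPM in WT mouse 1 and 80.2 TPM in WT mouse 2. WT mouse 1 was the highest in both the Purkinje cell and the interneuron sum. Among the members it was also the highest for Vamp1, Slc17a6, Cplx1, Rab3b and Sv2c, the last of which was not tested. Without WT mouse 1, 0 members were DEX and 10 had an unadjusted p under 0.05 in limma. The part of these cells in the differences above was not tested.

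Of the other cell types, the 6 unipolar brush cell markers summed to between 155 and 193 TPM, the 10 astrocyte markers to between 1156 and 1368 TPM, the 9 oligodendrocyte markers to between 14968 and 17899.9 TPM, the 6 microglia markers to between 85.4 and 105 TPM, and the 6 endothelial and mural markers to between 103 and 134 TPM. The 4 choroid plexus markers summed to at most 1.498 TPM and the 5 forebrain neuron markers to at most 8.75 TPM, while the 5 red cell markers summed to between 1142 and 1928 TPM. These sums cover single markers that differed in opposite directions. Of the red cell markers, Hbb-bs had 506 and 8.08 TPM in the WT mice and 0.00768 and 0.142 TPM in the Kdm3b+/- mice (adjusted p = 0.116 from limma). In contrast, 3 others were higher in both Kdm3b+/- mice than in both WT mice. Aqp4, the water channel of astrocytes, was DEX and higher in Kdm3b+/- mice (log2 fold change 1.10, adjusted p = 0.0329 from limma), and Mobp, a myelin gene, was DEX and lower (−0.93, adjusted p = 0.0133). The choice to name Aqp4, Mobp and Hbb-bs was made after seeing their values. The calls were lost without WT mouse 1 (adjusted p = 0.0723 for Aqp4 and 0.0694 for Mobp in limma), and that of Mobp also without WT mouse 2 (0.0711).

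**Figure D5:**
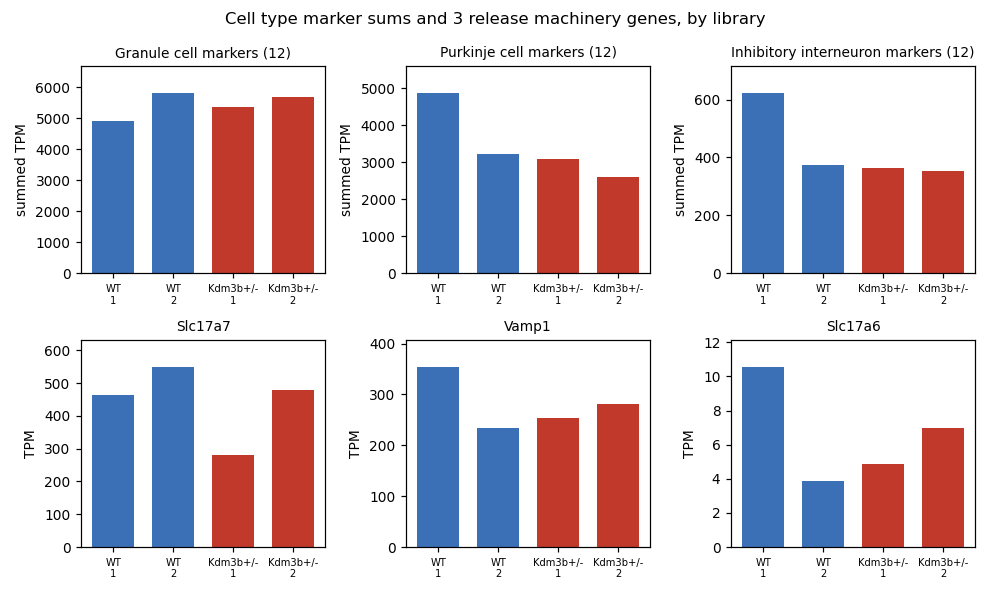
Summed TPM of granule cell, Purkinje cell and inhibitory interneuron markers (12 genes each) and TPM of Slc17a7, Vamp1 and Slc17a6 in each library (linear axes from 0; WT blue, Kdm3b+/- red). WT mouse 1 is highest for the Purkinje and interneuron sums, Vamp1 and Slc17a6, and Kdm3b+/- mouse 1 is lowest for Slc17a7. Aldoc makes up most of the Purkinje sum in each library.

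Release machinery transcripts were longer than most, with a median of 4788 bases against 3364 bases for all genes tested. Across all genes tested, the log2 fold change and transcript length correlated at a Spearman rho of −0.23 (12904 genes with a known length, which share the same 4 libraries). Across the 45 members tested the same value was 0.16. With libraries corrected for the length and GC content of transcripts, Cplx2 stood at 0.78 and Rims3 at −0.67 on the log2 scale, and neither was DEX. Among paralogs, the longest identical run that their transcripts share was 32 bases for Cplx1 and Cplx2 and between 12 and 29 bases for the other pairs examined, such as 29 bases for Rab3a and Rab3d and 26 bases for Napa and Napb.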

How the data were processed

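Bulk RNA of GCE tissue was sequenced from 2 WT and 2 Kdm3b+/- mice, and libraries were grouped by the genotype in the labels. Per the study's methods, the authors trimmed the reads for base quality, mapped them with STAR and quantified genes with StringTie; versions, genome build, annotation and strandedness are not given in the sources used here. The authors deposited, per gene, coverage (mean read depth over exons, not normalized), FPKM (scaled to length and mapped fragments) and TPM (scaled to length and to a fixed total per library). Of the listed gene models, 99.5% lay on the chromosome, and 89.9% started within 1 kb of the start, given by RefSeq for GRCm38, all 48 members being on the RefSeq chromosome. Depth was taken from the ratio of coverage to FPKM.

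TPM was summed over entries that share a gene identifier (220 identifiers) and members were matched by identifier; symbols were found for 24462 of 24532. Genes whose TPM averaged 1 or more were tested on log2(TPM + 1), a scale that understates the change of low genes, with limma version 3.58.1 (lmFit, eBayes with trend, genotype only) in R version 4.3.3, with Benjamini-Hochberg adjustment over all 13652 genes. TPM values are not counts, so the count test of the study was not repeated. Shares and ratios were compared by two-sided exact permutation tests. Other steps used Python version 3.11.15, pandas version 2.3.3, NumPy version 2.4.6 and Matplotlib version 3.10.9, and the scripts were tested on simulated data. With 2 mice per group, p-values rest on a spread shared across genes.

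The members, gene lists and tests were chosen with earlier results of these data known. Values are given in every library for the complexins, Stx1a, Snap25, Vamp1, Vamp2, each member with an unadjusted p under 0.05 or called DEX, and the member with the highest level in each role. Other members are given by range and counts. Of the other pathway genes, the DEX gene and the 3 with the smallest p are named, and some others are counted with the list and not reported here by themselves. Alternatives were a pseudocount of 0.1, quantile normalization, median-ratio scaling, FPKM, no filter, a minimum mean TPM of 5, leaving the 20 highest genes out of TPM, the highest entry per gene, eBayes without trend, robust eBayes (statmod version 1.5.0), the replicate number as a block, loess correction for the length and GC content of transcripts (alone or together with the block), each library left out, and other DEX thresholds. The length and GC content came from GENCODE (GRCm38) and covered 94.5% of genes tested.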

Additional observations from a re-analysis of the deposited data

How the results depend on the processing

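The 63 DEX genes of all those tested were 38 with FPKM, 1 without the filter on low TPM, 37 with eBayes without trend, 33 with a log2 fold change over 1.2 as the threshold, and between 21 and 188 with a library left out. The members had 0 DEX genes except under the replicate block (5) and without Kdm3b+/- mouse 2 (2, Rims3 and Slc17a7), so with a library left out their number was between 0 and 2. The other pathway genes had 1 DEX gene, 0 without the filter, and between 0 and 4 with a library left out. Same-numbered mice are different animals, and the numbers were not taken to pair the samples. The deviations of mouse 1 from the group mean correlated at 0.121 between the genotypes (0.0288 after the length and GC correction). With 2 mice per group, the deviations of mouse 2 are those of mouse 1 with the sign turned. The correlation is therefore 1 value, which cannot tell whether same-numbered libraries share a batch. With the replicate block, 600 genes were DEX, among them 5 members (Cplx2, Napb, Rab3d, Rims3 and Synpr) and 5 other pathway genes, and Cplx2 kept its log2 fold change of 0.58 with an adjusted p of 0.0376. With the block and the length and GC correction together, 60 genes were DEX. Over all alternatives the adjusted p of Cplx2 lay between 0.0376 and 0.399 in limma. The signs of small fold changes depended on the scaling. Napa was 0.016 with FPKM, 0.024 with median-ratio scaling and 0.076 with the length and GC correction, with and without the block; Syt11 was 0.013, 0.021 and 0.10, and Rims2 was 0.062, 0.070 and 0.14 in the same fits. Rims2 was also 0.038 with quantile normalization and 0.0057 without the 20 highest genes. Rab3a was −0.0061 with the length and GC correction, with and without the block, and Syn2 was −0.0045 with quantile normalization. With a library left out, the log2 fold change lay between −0.58 and 0.18 for Cplx3, −0.16 and 0.41 for Stx1a, −0.056 and 0.068 for Snap25, −0.40 and 0.19 for Vamp1, −0.12 and 0.023 for Napa, −0.23 and 0.12 for Syt11, −0.10 and 0.10 for Rims2, −0.025 and 0.11 for Rab3a, and −0.21 and 0.26 for Syn2. The other 15 of the 24 members with values in every library kept their direction in all 17 refits, which leaving out a library cannot turn where the groups do not overlap. Members with an unadjusted p under 0.05 were 7 in place of 11 without Kdm3b+/- mouse 1, and also 7 without Kdm3b+/- mouse 2. Of genes tested with an unadjusted p under 0.05, 32.2% were higher in Kdm3b+/- mice, and 49.7% with median-ratio scaling. With a library left out, 1 group holds a single mouse, which is assumed to vary like the others. The causes were not tested. Precision is limited by 2 mice per group, and the files give no read counts from which to set an interval for the 3 members under 1 TPM.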
